A study of Mus musculus with 29 samples.

Results

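Solute carriers are membrane proteins that move amino acids, sugars, ions, metals, nucleotides and metabolites across the plasma membrane or the membranes of organelles. They were described here as every gene whose mouse symbol begins with Slc and a family number, apart from Slc1a2 and Slc24a2, which were set aside by the rule. This gave 171 of 9872 genes in the amygdala tables and 100 of 6080 genes in the medial prefrontal cortex tables. Between the regions 90 genes were shared, 81 were measured in the amygdala alone and 10 in the prefrontal cortex alone, which made 181 genes in either. Of these, 166 amygdala and 98 prefrontal genes code for carriers, and 5 and 2 are only named after one, such as the scaffold gene Slc9a3r1. The mitochondrial carriers of family 25 were the largest family, with 35 amygdala and 21 prefrontal members, followed by family 35 of the Golgi and endoplasmic reticulum with 17 and 11.

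The RNA came from neurons labelled as pyramidal, sorted by the yellow reporter of the B6.Cg-Tg(Thy1-YFP)HJrs/J mouse line, in which the Thy1 promoter drives the fluorescent protein in part of the projection neurons. Every group carried this transgene, and the age of the mice was not given in the sources used here. Mice were labelled Sus-T or Res-T, each with or without trauma. In the amygdala there were 4 libraries of Sus-T with trauma, 4 of Res-T with trauma, 2 of Sus-T without trauma and 3 of Res-T without trauma. In the prefrontal cortex there were 4, 3, 2 and 4 libraries of these groups in the same order. The labels did not say whether each library was a separate animal, and the 13 amygdala libraries outnumber the 9 mice that the series' design gives for that region. The p-values therefore measure the spread between libraries, which may in part be technical.

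Transport sets several features of neurons and of the glia around them. The balance of chloride import and export decides whether GABA inhibits a neuron, uptake of glutamate, glycine and GABA ends their action, and glucose and lactate carriers feed the tissue. Choline carriers supply membrane lipids, and mitochondrial carriers exchange nucleotides, amino acids and calcium-regulated substrates with the cytosol. The vesicular glutamate carriers Slc17a7 and Slc17a6, the vesicular GABA carrier Slc32a1 and the vesicular zinc carrier Slc30a3 were not analysed here.

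Values are the authors' deposited signal in arbitrary units, and totals per library were 3267967 to 4021272 in the amygdala and 2095138 to 2444486 in the prefrontal cortex, which do not state read depth. Of 12 genes that mark pyramidal neurons, 3 were measured in the amygdala (Camk2a, Camk2n1 and Nrgn) and 0 in the prefrontal cortex. The labelled cell type could thus be checked only in part. These 3 markers took 0.00494 to 0.218% of the total in amygdala libraries. The measured markers do not show that the RNA was mainly that of pyramidal neurons. Markers of oligodendrocytes, the myelin-forming glia, took 2.08 to 7.83% of the total in amygdala libraries and 2.78 to 9.50% in prefrontal libraries, with 17 and 14 of 18 markers measured. One prefrontal library, Res-T without trauma replicate 4, stood apart at 9.50%, against 3.58 to 4.30% in the other 3 of its group. The solute carriers together took 1.25 to 1.75% of the total in the amygdala and 1.34 to 1.88% in the prefrontal cortex, and the ranges of the groups overlapped in each region.

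Solute carriers differed between Sus-T and Res-T in 2 settings, the amygdala without trauma and the prefrontal cortex with trauma. In the amygdala without trauma, 20 of 171 members were higher and 33 lower in Sus-T, 31.0% of the members, at an adjusted p under 0.05 in limma. Of all genes 27.4% passed, 12.4% higher and 15.0% lower, so the share among solute carriers lay near that of all genes measured. The median log2 difference was -0.17 over the members and -0.03 over all genes. In 104 members (60.8%) the libraries of Sus-T and Res-T did not overlap, as in 58.9% of all genes, and 44 of the 53 called members differed by at least 2-fold. In the prefrontal cortex with trauma, 14 of 100 members were higher and 11 lower in Sus-T, where 23.0% of all genes passed, 14.0% higher and 8.93% lower. There 43 members (43.0%) did not overlap, against 40.7% of all genes, and the median log2 difference was 0.04 over the members and 0.15 over all genes.

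**Figure D1:**
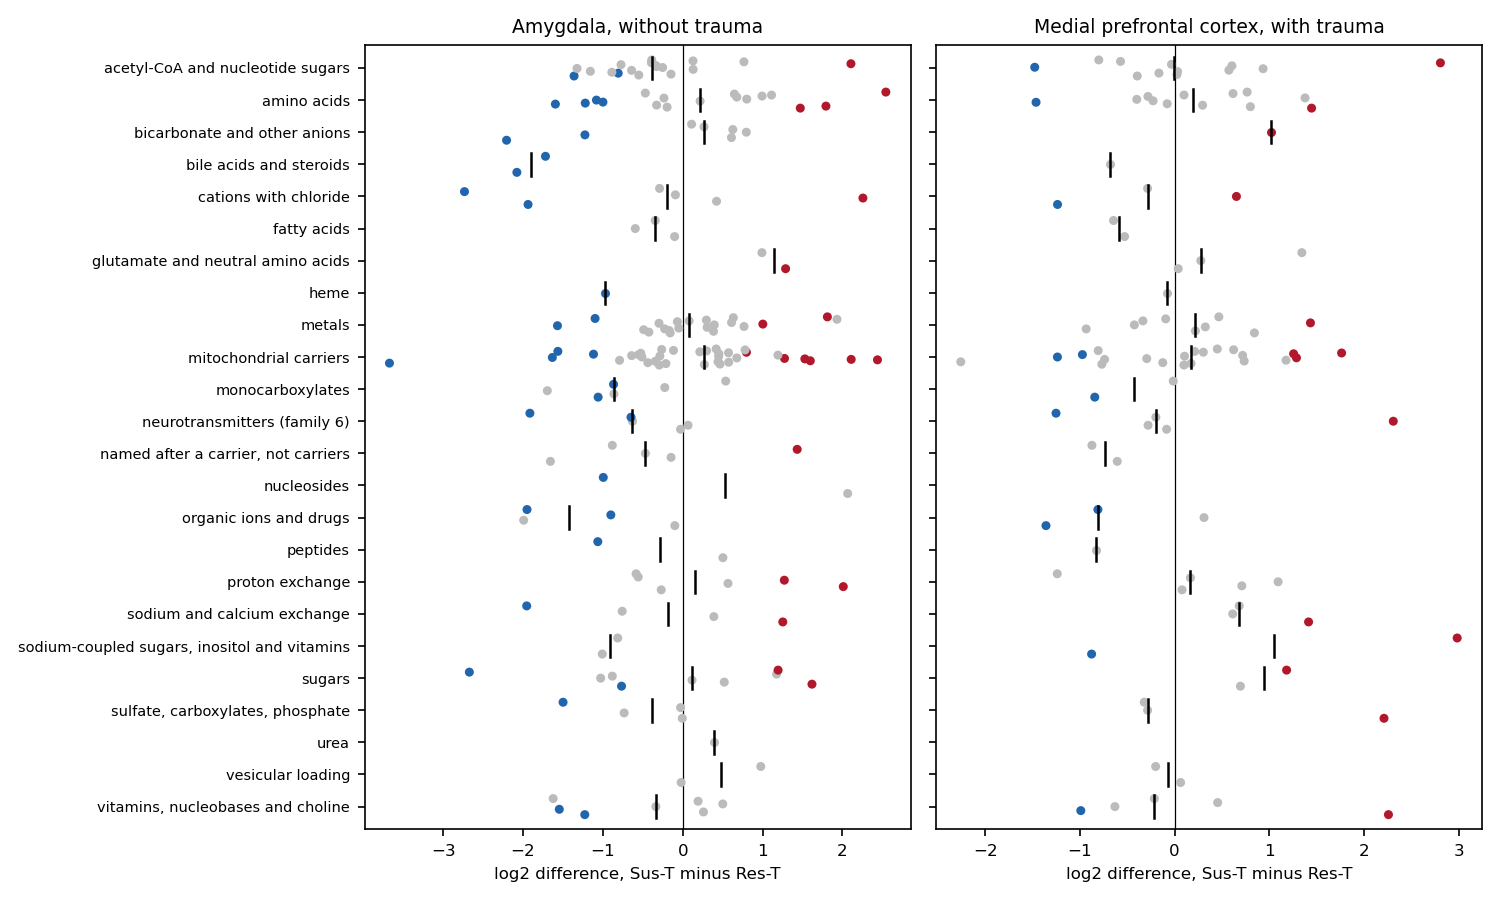
Log2 difference (Sus-T minus Res-T, x axis) of every solute carrier gene, by substrate class (y axis), in the amygdala without trauma (left, 171 genes) and the prefrontal cortex with trauma (right, 100 genes). Red and blue points passed an adjusted p of 0.05 as higher or lower in Sus-T, grey points did not, and black bars are class medians. Most classes hold genes on both sides of 0.

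The 2 settings share no library, although the sources did not say whether amygdala and prefrontal libraries came from the same mice. Of the 90 members measured in both regions, 28 passed in the amygdala without trauma, 22 in the prefrontal cortex with trauma and 14 in both. These were 14 of 28 and 14 of 22 (63.6%) of the 2 lists, and all 14 had the same direction, as did all 695 of the genes called in both over the whole tables (51.0% and 55.1%). Higher in Sus-T in both were Slc35f1, Slc36a1, Slc39a10, Slc24a3, Slc25a25 and Slc45a4. Lower in both were Slc38a2, Slc12a2, Slc6a9, Slc25a27, Slc44a1, Slc25a36, Slc16a1 and Slc22a23. Some of these calls were fragile. The prefrontal calls of Slc16a1, Slc22a23 and Slc25a27 were lost whichever Res-T library with trauma was left out. When 1 library with trauma was left out, Slc44a1 kept its prefrontal call only without Res-T replicate 4 or Sus-T replicate 4. Slc24a3 lost its prefrontal call without Res-T replicate 1 or 4 and without Sus-T replicate 2 or 3. Slc25a25 lost its prefrontal call without replicate 1 or 3 of either group. The amygdala calls of Slc25a25 and Slc45a4 were lost without Res-T without trauma replicate 1 or replicate 2. With the replicate number as a block, Slc22a23, Slc25a25 and Slc25a27 did not pass in the prefrontal cortex (limma adjusted p = 0.052, 0.0605 and 0.0777). Slc35f1, whose substrate is not settled, was 4.31-fold higher in the amygdala (log2 difference 2.11 ± 0.40 SE, limma adjusted p = 0.000934) and 7.01-fold higher in the prefrontal cortex (2.81 ± 0.60, adjusted p = 0.00555). Slc38a2, which takes up small neutral amino acids with sodium, was 3.02-fold lower (-1.59 ± 0.29, adjusted p = 0.000619) and 2.76-fold lower (-1.46 ± 0.33, adjusted p = 0.00713).

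**Figure D2:**
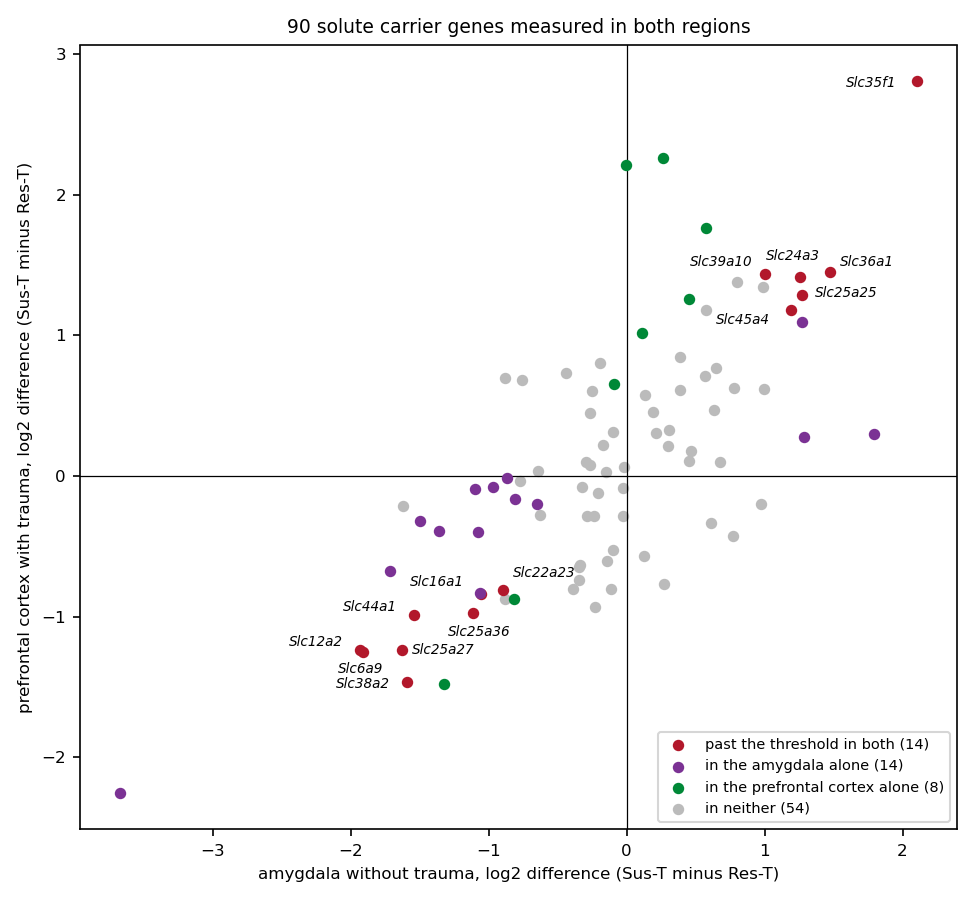
Log2 difference (Sus-T minus Res-T) of the 90 members measured in both regions, in the amygdala without trauma (x axis) and the prefrontal cortex with trauma (y axis). The 14 members past the threshold in both (red, named) lie at the lower left and upper right, 14 passed in the amygdala alone, 8 in the prefrontal cortex alone and 54 in neither.

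The promoters of 4 of these 14 genes are shown because they moved together: Slc38a2 and Slc25a36 (lower in both) and Slc35f1 and Slc36a1 (higher in both). They had the largest mean change in each direction among the 6 genes with a single RefSeq promoter entry. Each window is 300 bases, 250 before and 50 after the annotated start, from RefSeq on GRCm38.p6, written 5′ to 3′ on the gene's strand. They lie at chr15:96699679-96699978 (minus strand, Slc38a2), chr9:97110992-97111291 (minus strand, Slc25a36), chr10:52690251-52690550 (plus strand, Slc35f1) and chr11:55204090-55204389 (plus strand, Slc36a1). Capitals mark matches, on either strand, to TGACG (a short form of the cAMP response element), GGGCGG (GC box), CACGTG (E-box), CCAAT and TATAAA.
Slc38a2: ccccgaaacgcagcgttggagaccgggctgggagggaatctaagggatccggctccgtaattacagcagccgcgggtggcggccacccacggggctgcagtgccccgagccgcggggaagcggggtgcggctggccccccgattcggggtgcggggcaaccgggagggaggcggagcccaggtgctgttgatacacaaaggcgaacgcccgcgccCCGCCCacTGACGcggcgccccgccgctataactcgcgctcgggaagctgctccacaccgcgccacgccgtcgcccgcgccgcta
Slc25a36: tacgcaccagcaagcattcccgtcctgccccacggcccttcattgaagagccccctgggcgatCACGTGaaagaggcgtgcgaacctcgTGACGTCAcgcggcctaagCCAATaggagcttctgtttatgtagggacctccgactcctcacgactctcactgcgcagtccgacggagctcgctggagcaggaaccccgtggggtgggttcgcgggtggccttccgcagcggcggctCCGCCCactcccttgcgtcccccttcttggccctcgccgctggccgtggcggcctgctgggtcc
Slc35f1: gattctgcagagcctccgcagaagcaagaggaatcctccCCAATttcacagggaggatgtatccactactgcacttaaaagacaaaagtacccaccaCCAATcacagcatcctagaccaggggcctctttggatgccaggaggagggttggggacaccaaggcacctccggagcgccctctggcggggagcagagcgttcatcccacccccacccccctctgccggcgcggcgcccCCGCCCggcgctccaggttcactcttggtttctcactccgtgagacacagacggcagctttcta
Slc36a1: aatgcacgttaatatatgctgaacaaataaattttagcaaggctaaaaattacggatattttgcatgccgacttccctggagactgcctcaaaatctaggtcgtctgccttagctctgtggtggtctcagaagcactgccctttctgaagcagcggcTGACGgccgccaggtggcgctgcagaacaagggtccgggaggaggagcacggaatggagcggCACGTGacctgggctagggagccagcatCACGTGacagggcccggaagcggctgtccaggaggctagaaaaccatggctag
The windows differed in their letters. The Slc38a2 window held 1 TGACG and 1 GC box, the Slc25a36 window 2 TGACG that overlap on opposite strands with 1 GC box, 1 E-box and 1 CCAAT, the Slc35f1 window 1 GC box and 2 CCAAT, and the Slc36a1 window 1 TGACG and 2 E-boxes. Over all 32851 promoters of the table, TGACG was found in 20.8%, the GC box in 35.7%, the E-box in 7.15%, CCAAT in 37.4% and TATAAA in 13.6%. Of the 181 solute carrier genes 143 had an entry, and their 191 promoters held these motifs in 27.2%, 70.7%, 12%, 37.2% and 7.33%, with a median GC content of 61.3% against 52.7% over all promoters. No motif was common to the 4 windows.

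In the amygdala without trauma, the chloride cotransporters of family 12 differed in opposite directions. Slc12a2, which brings sodium, potassium and chloride into cells, had 1767 and 2475 units in Sus-T against 7169, 9381 and 7636 in Res-T. All Sus-T libraries lay below all Res-T libraries, and the difference was 3.83-fold lower (log2 -1.94 ± 0.23 SE, limma adjusted p = 2.91e-05), the smallest p of any member. Slc12a5, the neuronal exporter of potassium and chloride, had 132.5 and 147.5 units in Sus-T against 33.5, 30.1 and 22.9 in Res-T, a 4.78-fold higher level (2.26 ± 0.64, adjusted p = 0.0156). That call was lost when either Sus-T library was left out. Slc12a8 was low throughout and lower in Sus-T, with 5.72 and 13.2 units against 71.5, 71.8 and 50.6 in Res-T (-2.73 ± 0.71, adjusted p = 0.00808). Of 6 members of the class measured, 1 rose and 2 fell.

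Single carriers of choline, phosphate and glycine were lower in Sus-T: 1 of 3 measured members of family 44, 1 of 2 of family 20 and, in family 6, 2 of 5. Slc44a1, a choline carrier of cell and mitochondrial membranes, had 1153 and 1563 units in Sus-T against 3713, 4706 and 3448 in Res-T (2.92-fold lower, log2 -1.55 ± 0.20, limma adjusted p = 4.27e-05). Slc20a2, a sodium-phosphate cotransporter, had 173.7 and 242.2 units in Sus-T against 653, 660.9 and 454.7 in Res-T (2.82-fold lower, adjusted p = 0.000277). Slc6a9, the glycine transporter that is known from astrocytes, had 242.8 and 470.8 units in Sus-T against 1512, 1546 and 890.2 in Res-T (3.77-fold lower, adjusted p = 0.000318). In these 3 genes the groups did not overlap. Another family 6 member, the creatine carrier Slc6a8, was 1.57-fold lower (adjusted p = 0.0338), with 522.6 and 501.8 units in Sus-T and 868.3, 928.9 and 641.4 in Res-T. The GABA carrier Slc6a11, known from astrocytes, had 571 and 1044 units in Sus-T and 876.3, 826.6 and 553.6 in Res-T and did not pass (limma adjusted p = 0.908).

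Several of the lower carriers are known from oligodendrocytes, whose markers were lower too. Of 5 carriers listed as known from that cell type, 4 fell (Slc12a2, Slc44a1, Slc48a1 and Slc45a3), and the other, the inositol carrier Slc5a11, had 3.44 and 10.6 units in Sus-T and 13.2, 15.95 and 11.5 in Res-T (adjusted p = 0.267). Slc48a1, a heme transporter, was 1.96-fold lower with 446.3 and 572.7 units in Sus-T against 1076, 1072 and 839.8 in Res-T. Slc45a3 had 4.93 and 16.5 units in Sus-T against 61.4, 75.2 and 56.2 in Res-T (6.37-fold lower, limma adjusted p = 0.0117). Of 17 measured oligodendrocyte markers 15 fell and 0 rose, and their summed share was 2.08 and 3.11% in Sus-T against 6.72 to 7.83% in Res-T. Their part in the result was not tested, and in sorted bulk RNA fewer cells of a type and less RNA per cell cannot be told apart.

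Amino acid carriers moved both ways, with 3 of 17 higher and 4 lower. Slc7a8, an exchanger of neutral amino acids, had 205.5 and 338.4 units in Sus-T against 35.2, 26.6 and 92.9 in Res-T, and its 5.83-fold rise was the largest of any member (log2 2.54 ± 0.48, limma adjusted p = 0.000927). Slc38a1, a sodium-coupled glutamine carrier known from neurons, had 160.3 and 187.4 units in Sus-T against 59.1, 47.1 and 43.1 in Res-T (3.47-fold higher, adjusted p = 0.00924). Slc36a1, a proton-coupled carrier of lysosomes, had 181.9 and 305.6 units in Sus-T against 97.3, 114.4 and 53.8 in Res-T (2.77-fold higher, adjusted p = 0.00456). The sodium-coupled members that fell belong to the same family 38 as Slc38a1. Slc38a2 had 1260 and 2027 units in Sus-T against 4246, 6348 and 4170 in Res-T, and its promoter is among the 4 printed above. Slc38a6 had 904.7 and 1233 units in Sus-T against 2397, 2120 and 2935 in Res-T (2.33-fold lower, adjusted p = 0.000493). Slc43a2, a carrier of branched-chain and aromatic amino acids, was 2.11-fold lower (adjusted p = 0.0101), and the lysosomal arginine-sensing carrier Slc38a9 was 2.0-fold lower (adjusted p = 0.00557).

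Among glutamate carriers of the plasma membrane, Slc1a3, the astrocyte glutamate transporter, had 3010 and 5851 units in Sus-T against 1862, 1320 and 2064 in Res-T (2.44-fold higher, limma adjusted p = 0.0227). Slc1a4, a neutral amino acid exchanger, had 221 and 516.7 units in Sus-T and 197.4, 153 and 161.3 in Res-T (adjusted p = 0.0503). Both genes had their higher value in the same Sus-T library, replicate 3, without which the Slc1a3 call was lost. Among 11 carriers listed as known from astrocytes, 2 rose (Slc25a18 and Slc1a3) and 1 fell (Slc6a9). Of 11 astrocyte markers 5 rose and 0 fell, with a summed share of 0.263 and 0.508% in Sus-T against 0.123 to 0.174% in Res-T. Their part in these values was not tested.

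Mitochondrial carriers formed the largest class, with 6 of 35 members higher and 4 lower and a median log2 difference of 0.27. Slc25a23, a calcium-regulated carrier of ATP-magnesium and phosphate, had 1365 and 1337 units in Sus-T against 401.5, 509.4 and 499.2 in Res-T (2.89-fold higher, log2 1.53 ± 0.21, limma adjusted p = 7.21e-05). Slc25a25, of the same kind, was 2.42-fold higher (adjusted p = 0.0285). The mitochondrial glutamate carriers rose as well. Slc25a22 had 162.7 and 170.2 units in Sus-T against 43.7, 30.5 and 40.5 in Res-T (4.31-fold higher, adjusted p = 0.000863), and Slc25a18 had 147.3 and 345.3 units in Sus-T against 91.5, 65.3 and 67.5 in Res-T (3.03-fold higher, adjusted p = 0.00377). Slc25a4, an exchanger of ADP and ATP, was 1.74-fold higher (adjusted p = 0.0351), and its close relative Slc25a5 had 453.4 and 609.6 units in Sus-T and 332.8, 287.8 and 298.1 in Res-T (adjusted p = 0.109). Similar sequences can divide reads in quantification, so these 2 values are uncertain. Slc25a13, an exchanger of aspartate and glutamate, had the largest fall of any member, with 4.95 and 27.4 units in Sus-T against 137.2, 208.5 and 155.2 in Res-T (12.7-fold lower, log2 -3.67 ± 0.66, adjusted p = 0.000634). Slc25a27, related to the uncoupling proteins, had 160.8 and 109.5 units in Sus-T against 547.2, 359.2 and 359.8 in Res-T (3.10-fold lower, adjusted p = 0.000886). Slc25a36, a carrier of pyrimidine nucleotides whose promoter is printed above, had 280.6 and 319.5 units in Sus-T against 630.7, 544.1 and 802.7 in Res-T (2.17-fold lower, adjusted p = 0.00218).

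**Figure D3:**
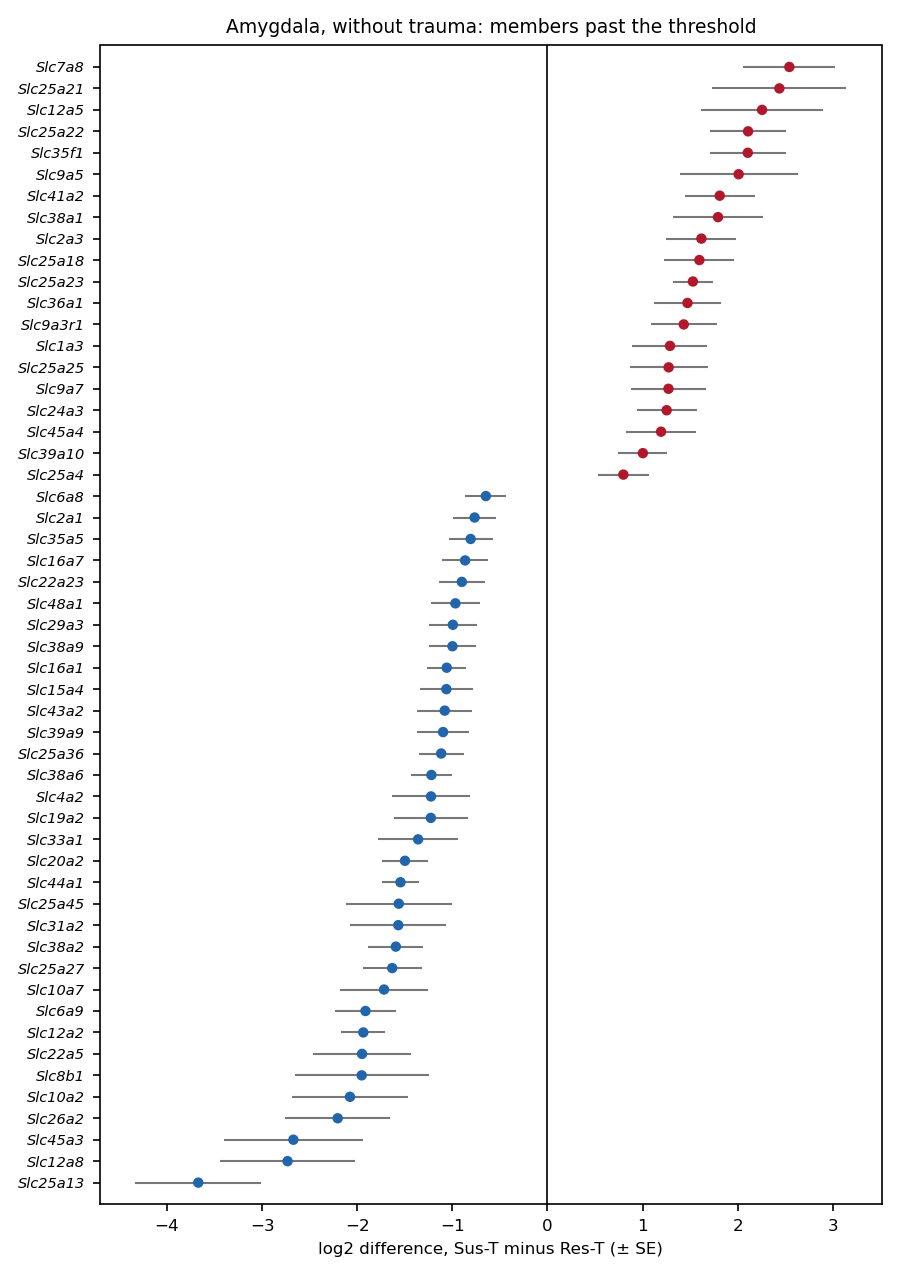
Log2 difference (Sus-T minus Res-T without trauma, x axis, points with SE bars) of the 53 solute carrier genes (y axis) past an adjusted p of 0.05 in the amygdala. The 20 rises run from 0.80 (Slc25a4) to 2.54 (Slc7a8) and the 33 falls from -0.65 (Slc6a8) to -3.67 (Slc25a13).

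Of 9 members of the sugar class 2 rose and 2 fell, and the best known glucose carriers differed in opposite directions. Slc2a3, the glucose transporter typical of neurons, had 86.6 and 96.7 units in Sus-T against 19.6, 30.4 and 41.4 in Res-T (3.07-fold higher, limma adjusted p = 0.00355). Slc2a1, typical of brain vessels and astrocytes, had 285.1 and 278 units in Sus-T against 478.1, 578.6 and 398.2 in Res-T (1.70-fold lower, adjusted p = 0.0195). The Slc2a1 call was lost when either Sus-T library or Res-T replicate 2 was left out, while Slc2a3 kept its call. Of 6 monocarboxylate carriers of family 16, 2 fell and 0 rose. Slc16a1, a carrier of lactate and pyruvate, had 378.2 and 399.8 units in Sus-T against 691.7, 918.7 and 841.2 in Res-T (2.08-fold lower, adjusted p = 0.0011), and its relative Slc16a7 was 1.82-fold lower (adjusted p = 0.0119). The lactate carrier Slc16a3 had 38.1 and 10.7 units in Sus-T and 44.7, 38.1 and 31.8 in Res-T (adjusted p = 0.43). Among 6 carriers listed as known from brain vessels and meninges, 2 fell (Slc16a1 and Slc2a1) and 0 rose. Of 5 measured endothelial and mural markers 1 rose (Col1a2) and 1 fell (Kdr). Their summed share was 0.0104 and 0.0132% in Sus-T and 0.00889 to 0.0149% in Res-T, which overlapped. Of 8 carriers listed as known from neurons 4 rose (Slc2a3, Slc24a3, Slc38a1 and Slc12a5) and 0 fell. All 3 measured pyramidal markers rose, with a summed share of 0.105 and 0.129% in Sus-T against 0.00494 to 0.00768% in Res-T, and their part in the carrier values was not tested. The 3 measured of 11 microglia markers (Tmem119, C1qa and Cx3cr1) rose as well, and their part was not tested either.

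Ion exchangers and metal carriers included members on both sides. Slc24a3, an exchanger of sodium for calcium and potassium, had 164.5 and 170 units in Sus-T against 58.1, 76.0 and 76.3 in Res-T (2.38-fold higher, limma adjusted p = 0.00695). Slc8b1, the mitochondrial sodium-calcium exchanger, had 2.86 and 22.9 units in Sus-T against 38.7, 34.7 and 35.4 in Res-T (3.87-fold lower, adjusted p = 0.0471). With the replicate number as a block Slc8b1 did not pass (limma adjusted p = 0.0844). The plasma membrane exchanger Slc8a1 had 1661 and 1557 units in Sus-T and 1138, 1440 and 1128 in Res-T and did not pass (adjusted p = 0.257). The proton exchangers Slc9a5 and Slc9a7 were 4.03-fold and 2.41-fold higher (adjusted p = 0.0228 and 0.024), and Slc9a3r1, a scaffold of proton exchangers and no carrier itself, was 2.70-fold higher. Slc41a2, a magnesium carrier, had 62.9 and 92.5 units in Sus-T against 20.9, 18.0 and 24.7 in Res-T (3.51-fold higher, adjusted p = 0.00158). Of the zinc carriers, Slc39a10 was 2.0-fold higher (307.5 and 352.3 units in Sus-T against 160.3, 161.9 and 169.2 in Res-T) and Slc39a9 was 2.14-fold lower. Slc4a10, a sodium-coupled bicarbonate carrier known from neurons, had 290.3 and 161.1 units in Sus-T and 164.5, 133.3 and 128.9 in Res-T (adjusted p = 0.465). The anion exchanger Slc4a2 and the sulfate carrier Slc26a2 were 2.34-fold and 4.61-fold lower.

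The remaining falls were spread over several classes. The bile acid family had 2 members, and both fell: Slc10a2, the intestinal bile acid carrier, was 4.22-fold lower at 3.99 and 12.3 units in Sus-T against 33.9, 27.5 and 39.7 in Res-T, and Slc10a7 was 3.29-fold lower. The carnitine carrier Slc22a5 was 3.86-fold lower (12.9 and 53.2 units in Sus-T against 120.8, 96.6 and 99.2 in Res-T), and Slc22a23 was 1.87-fold lower. The lysosomal nucleoside carrier Slc29a3, the lysosomal peptide and histidine carrier Slc15a4 and the thiamine carrier Slc19a2 were 1.99-fold, 2.09-fold and 2.34-fold lower. In the class of acetyl-CoA and nucleotide sugar carriers 1 of 18 members rose and 2 fell. Slc35f1 had 118.4 and 154.1 units in Sus-T against 23.1, 49.2 and 25.1 in Res-T, while Slc35a5 was 1.75-fold lower. Slc33a1, which brings acetyl-CoA into the endoplasmic reticulum, was 2.57-fold lower (limma adjusted p = 0.0218). No member of the fatty acid, urea or vesicular class passed, and these classes held 3, 1 and 2 genes.

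Carrier genes outside the Slc naming and the partners of carriers gave counts of the same order. Of 25 genes listed as solute carrier families under other symbols, 3 rose (Sfxn5, Xpr1 and Sfxn1) and 6 fell (Npc1, Mtch2, Spns2, Sfxn4, Nipa1 and Sfxn2). Of 16 listed partners and regulators, 3 rose, Wnk2 and Wnk3 among them, and 2 fell (Wnk1 and Atp1b3). Wnk1, Wnk2 and Wnk3 code for kinases that regulate chloride cotransport.

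The Sus-T group without trauma had 2 libraries, and the counts depended on each. Without its replicate 1 the count was 29 members, 18 higher and 11 lower, where 15.9% of all genes passed, and the remaining library was assumed to vary like the other groups. The 11 that still fell were Slc12a2, Slc44a1, Slc20a2, Slc6a9, Slc38a2, Slc38a6, Slc25a13, Slc25a27, Slc25a36, Slc16a1 and Slc16a7. Without replicate 3 the count was 40, with 32 lower and 8 higher, where 18.7% of all genes passed, so that the larger direction turned between the 2 fits. The 8 were Slc7a8, Slc35f1, Slc25a22, Slc25a23, Slc25a21, Slc2a3, Slc24a3 and Slc41a2. With quantile normalization Slc4a2 and Slc6a8 did not pass (adjusted p = 0.0663 and 0.078 in limma).

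**Figure D4:**
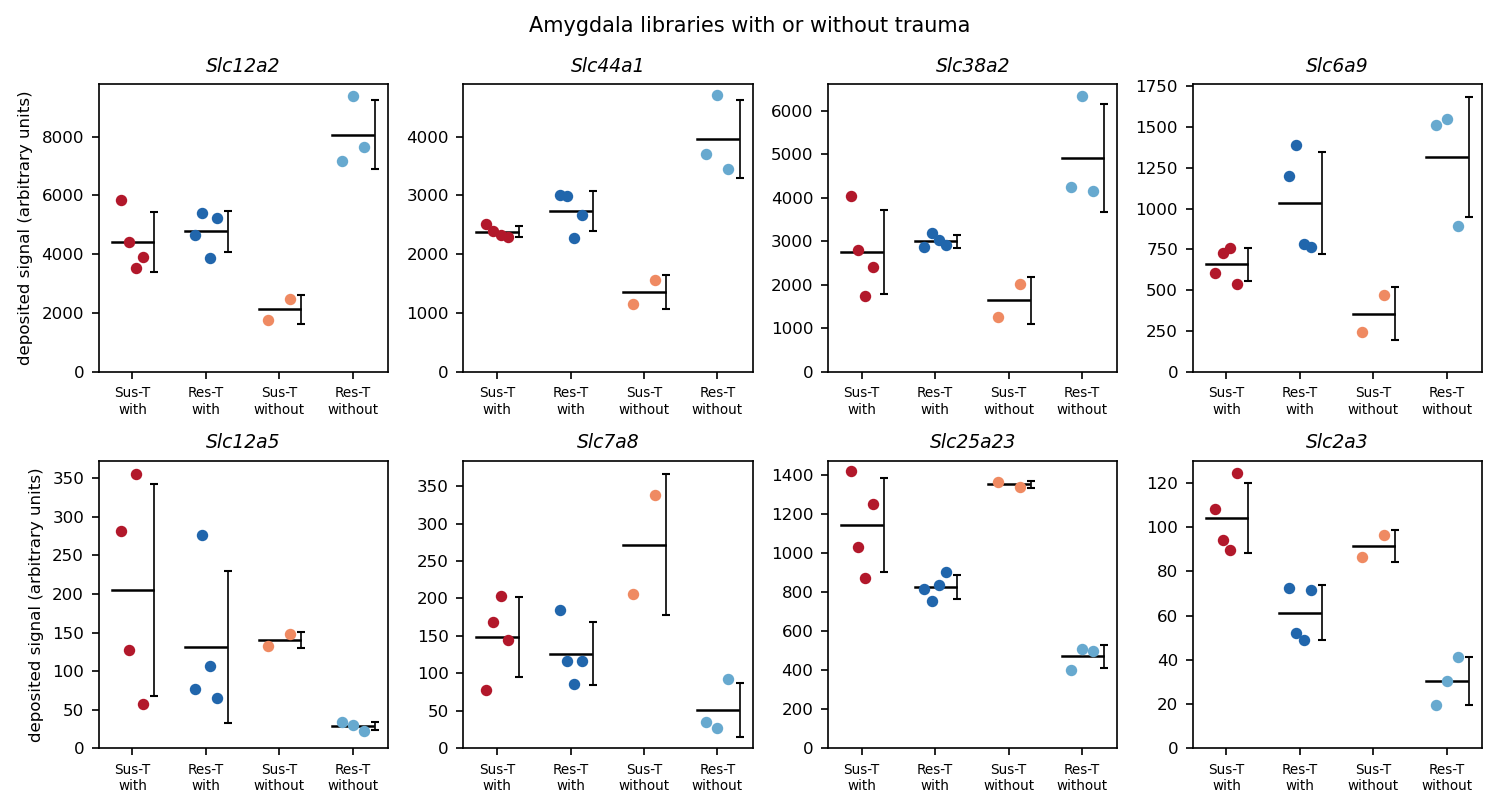
Deposited signal (y axis, arbitrary units, from 0) of 8 solute carrier genes in each amygdala library, by group (x axis). Points are libraries, black lines means and bars SD. Without trauma, Sus-T lies below Res-T in the upper 4 genes and above it in the lower 4, and with trauma the groups overlap in all but Slc6a9 and Slc2a3.

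With trauma the amygdala groups were not told apart. Of 171 members 0 passed between Sus-T and Res-T with trauma in limma, as in 0.0% of all genes, 14 members (8.19%) had an unadjusted p under 0.05, against 11.6% of all genes, and the lowest adjusted p was 0.237. The 4 smallest p were those of Slc9a5 (log2 difference 1.48 ± 0.48), the polyamine vesicle carrier Slc18b1 (1.01 ± 0.33), Slc5a11 (-1.44 ± 0.50) and Slc35f2 (-1.51 ± 0.53). Slc9a5 had 29.2, 38.2, 34.6 and 30.3 units in Sus-T and 14.7, 21.8, 7.45 and 6.25 in Res-T, without overlap. Such a lack of overlap was found in 7 members (4.09%), and the share over all genes is not given. Slc12a2 had 5845, 4422, 3517 and 3918 units in Sus-T and 4639, 5392, 3855 and 5234 in Res-T with trauma. Slc12a5 ranged from 56.9 to 355.6 units in Sus-T and from 65.2 to 276.9 in Res-T with trauma. The oligodendrocyte share was 4.30 to 5.62% in Sus-T and 5.0 to 6.76% in Res-T with trauma.

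Between Res-T libraries with and without trauma, 10 of 171 amygdala members passed, 7 higher and 3 lower with trauma. These comparisons use the same Res-T libraries without trauma as those above. Of all genes 6.18% passed, 3.3% higher and 2.88% lower. The libraries of 40 members (23.4%) did not overlap, as in 23.1% of all genes. Slc12a5 had 76.9, 276.9, 106.5 and 65.2 units with trauma against 33.5, 30.1 and 22.9 without (3.78-fold higher, log2 1.92 ± 0.54, limma adjusted p = 0.0442). Slc38a1 had 179.5, 445, 125 and 89.3 units with trauma against 59.1, 47.1 and 43.1 without (3.46-fold higher, adjusted p = 0.0153). Replicate 2 with trauma was the highest library in both genes. Slc25a23 had 813.3, 755.9, 834.4 and 903.4 units with trauma against 401.5, 509.4 and 499.2 without (1.76-fold higher, adjusted p = 0.0135). Slc7a8, Slc35f1, Slc25a22 and Slc25a4 were 2.69-fold, 2.65-fold, 2.22-fold and 1.97-fold higher. Slc12a2 had 4639, 5392, 3855 and 5234 units with trauma against 7169, 9381 and 7636 without (1.69-fold lower, adjusted p = 0.029), and Slc25a27 and Slc25a36 were 2.06-fold and 1.69-fold lower. Of 17 oligodendrocyte markers 2 fell and 0 rose, and 2 of 3 pyramidal markers rose. Leaving out 1 library gave counts of 0 to 13 members, with 0 without Res-T without trauma replicate 1, 2 without its replicate 2 or replicate 3, and 3 without Res-T with trauma replicate 1 or replicate 3. The share of all genes that passed moved alike, between 1.02% and 7.17%. With quantile normalization the adjusted p of Slc12a2, Slc25a22 and Slc7a8 was 0.17, 0.0606 and 0.0656.

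Between Sus-T libraries with and without trauma, 0 of 171 amygdala members passed in limma, where 0.0304% of all genes passed. An unadjusted limma p under 0.05 was found in 25 members (14.6%), against 11.8% of all genes. The lowest adjusted p were those of Slc12a2 (0.0587), Slc39a9 (0.0657), Slc44a1 (0.0657) and Slc33a1 (0.0906). Slc12a2 had 5845, 4422, 3517 and 3918 units with trauma and 1767 and 2475 without (log2 difference 1.05 ± 0.22). Slc44a1 had 2511, 2400, 2333 and 2295 units with trauma and 1153 and 1563 without (0.83 ± 0.19). In both genes the libraries did not overlap, as in 30 of 171 members (17.5%), of which 0 passed. The share over all genes is not given for this comparison. Without Sus-T without trauma replicate 3, 11 members passed and all were higher with trauma, where 2.91% of all genes passed. They were Slc12a2, Slc44a1, Slc6a9, Slc22a5, Slc25a13, Slc26a2, Slc31a2, Slc33a1, Slc39a9, Slc8a3 and Slc8b1.

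The trauma effect differed between Sus-T and Res-T in 10 amygdala members, tested as the difference of the effects, where 6.74% of all genes passed, 4.76% higher and 1.98% lower. In 7 the effect was more positive in Sus-T. For Slc12a2 the log2 difference with trauma was 1.05 in Sus-T and -0.76 in Res-T (difference 1.81 ± 0.29, limma adjusted p = 0.00334). For Slc44a1 it was 0.83 in Sus-T and -0.53 in Res-T (1.36 ± 0.25, adjusted p = 0.00562). The other 5 were the amino acid carriers Slc38a2, Slc38a6 and Slc43a2, the nucleotide carrier Slc25a36 and the lactate carrier Slc16a1, with differences of 1.40, 1.05, 1.41, 1.19 and 1.01. In 3 the effect was more negative in Sus-T. For Slc7a8 it was -0.91 in Sus-T and 1.43 in Res-T (-2.34 ± 0.61, adjusted p = 0.0308), for Slc25a22 it was -0.91 in Sus-T and 1.15 in Res-T (-2.06 ± 0.50, adjusted p = 0.0224), and for Slc25a23 it was -0.27 in Sus-T and 0.82 in Res-T (-1.08 ± 0.27, adjusted p = 0.0225). Each of these 10 also passed between Sus-T and Res-T without trauma, in the opposite sign, which uses the same libraries. Of 17 oligodendrocyte markers 14 had a more positive effect in Sus-T and 0 a more negative one. Leaving out 1 library gave 1 to 16 members, with 1 without Sus-T without trauma replicate 1 (Slc12a2), 16 without Res-T with trauma replicate 2, and 4 and 5 without Res-T without trauma replicate 1 and replicate 2. Without Sus-T without trauma replicate 3 it also gave 16, all more positive in Sus-T, so that Slc7a8, Slc25a22 and Slc25a23 passed in neither fit without a Sus-T library without trauma. The share of all genes that passed lay between 0.598% and 8.21% in these fits. With quantile normalization 6 of the 10 calls were left, and Slc16a1, Slc38a2, Slc38a6 and Slc43a2 had an adjusted p of 0.0534, 0.078, 0.0854 and 0.0565.

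In the prefrontal cortex with trauma, the members with the smallest p were carriers of zinc, glycine and unknown substrates. Slc39a10, a zinc importer of the plasma membrane, had 362, 445.2, 493.1 and 476.4 units in Sus-T against 152, 177.2 and 159.1 in Res-T (2.71-fold higher, log2 1.44 ± 0.26, limma adjusted p = 0.00256). Slc6a9, the glycine carrier, had 228.1, 296.6, 297.1 and 387.3 units in Sus-T against 724.4, 720.8 and 681.8 in Res-T (2.38-fold lower, adjusted p = 0.00404). Slc35f1 had 242.3, 179.2, 102 and 237.6 units in Sus-T against 21.8, 36.8 and 19.0 in Res-T. In these 3 genes every Sus-T library lay on one side of every Res-T library.

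Amino acid and vitamin carriers followed. Slc38a2 had 885.1, 1838, 1383 and 2145 units in Sus-T against 3826, 4341 and 4117 in Res-T. Slc36a1 had 576.9, 221.7, 356.4 and 330.7 units in Sus-T against 123.2, 192 and 88.2 in Res-T (2.73-fold higher, limma adjusted p = 0.00989). Slc6a7, the brain proline carrier, was low and uneven, with 63.1, 3.13, 12.3 and 20.2 units in Sus-T against 2.30, 2.06 and 2.67 in Res-T (adjusted p = 0.0484). Slc23a2, which takes up vitamin C, had 370.1, 363.2, 420.4 and 532.6 units in Sus-T against 67.6, 107.5 and 88.0 in Res-T (4.79-fold higher, adjusted p = 0.0103). Its libraries of Res-T without trauma ranged from 57.9 to 813.5 units. Slc5a5, the sodium-iodide carrier best known from the thyroid, had 42.0, 35.6, 19.2 and 66.3 units in Sus-T against 2.93, 1.95 and 8.71 in Res-T, the largest rise of the region's members (7.92-fold, log2 2.99 ± 0.72, adjusted p = 0.00921). Slc5a3, an inositol carrier, was 1.83-fold lower (adjusted p = 0.0185). Slc1a3 had 4369, 1689, 3035 and 2751 units in Sus-T and 2179, 1279 and 4425 in Res-T, Slc1a1, the neuronal glutamate carrier, had 377.4, 251.6, 181.9 and 373.6 units in Sus-T and 257, 336.7 and 242.6 in Res-T, and neither passed (adjusted p = 0.614 and 0.944).

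Ion carriers again differed in both directions. Slc12a2 had 1764, 1967, 1431 and 3272 units in Sus-T against 4672, 5195 and 4360 in Res-T (2.35-fold lower, limma adjusted p = 0.00841). Slc4a8, a sodium-driven chloride-bicarbonate exchanger, had 397.7, 380.1, 363.5 and 309.1 units in Sus-T against 166.8, 190.9 and 176.2 in Res-T (2.03-fold higher, adjusted p = 0.0175). The calcium exchanger Slc24a3 was 2.67-fold higher (adjusted p = 0.0241). Slc8a1 had 1373, 1538, 1818 and 1447 units in Sus-T and 923.9, 1370 and 795.5 in Res-T (adjusted p = 0.0815). Slc12a5, Slc2a1, Slc2a3 and Slc4a10 of the prefrontal cortex were not analysed here.

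Of 21 prefrontal mitochondrial carriers 3 rose and 2 fell. Slc25a39, an importer of glutathione, had 175.9, 101.4, 147.5 and 154 units in Sus-T against 39.8, 63.5 and 27.2 in Res-T (3.40-fold higher, limma adjusted p = 0.00742). Slc25a25 and the iron importer Slc25a37 were 2.44-fold and 2.39-fold higher, and Slc25a27 and Slc25a36 were 2.36-fold and 1.96-fold lower. Slc25a13 had 58.8, 32.8, 4.02 and 41.3 units in Sus-T and 110.6, 140 and 115.4 in Res-T, the largest difference downwards among the members (log2 -2.26 ± 1.03), at an adjusted p of 0.125 that missed the threshold. The dicarboxylate carrier Slc13a3 was 4.64-fold higher and the nucleotide sugar carrier Slc35d1 2.78-fold lower, and both had overlapping groups (adjusted p = 0.0456 and 0.0486). Slc45a4 was 2.27-fold higher. Slc16a1, Slc22a15 and Slc22a23 were 1.79-fold, 2.56-fold and 1.75-fold lower.

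Slc44a1, the choline carrier, had 1356, 1257, 1172 and 2243 units in Sus-T against 3000, 3255 and 2473 in Res-T with trauma (1.99-fold lower, limma adjusted p = 0.0233). Of 3 prefrontal carriers listed as known from oligodendrocytes 2 fell, Slc12a2 and Slc44a1. Among 6 listed as known from neurons 2 rose (Slc24a3 and Slc6a7) and 0 fell. Among 7 listed as known from astrocytes 1 fell (Slc6a9), as did 1 of 3 from brain vessels and meninges (Slc16a1), and 0 rose in either list. Of 10 endothelial and mural markers 0 were measured in this region. Of 14 oligodendrocyte markers 10 fell and 0 rose, with a summed share of 2.92 to 4.93% in Sus-T against 5.93 to 8.18% in Res-T, and their part in the result was not tested. The 1 measured marker of oligodendrocyte precursors, Pdgfra, was higher in Sus-T (share 0.0243 to 0.0523% in Sus-T against 0.00867 to 0.0114% in Res-T), and its part was not tested either. In Slc12a2 and Slc44a1, the Sus-T library with the highest value was replicate 4, which also had the highest oligodendrocyte share of its group. Of 16 genes of carrier families under other symbols 5 rose (Mfsd5, Letm1, Sfxn3, Mtch1 and Mpc1) and 1 fell (Npc1), and of 12 partners 1 rose (Snx27) and 1 fell (Wnk1). Leaving out 1 library gave 11 to 19 members, with 11, 15 and 12 without Res-T replicates 1, 3 and 4 and 14 and 13 without Sus-T replicates 1 and 3. The share of all genes that passed in these fits lay between 10.3% and 19.1%. With quantile normalization Slc24a3, Slc25a25, Slc13a3 and Slc6a7 did not pass (adjusted p = 0.0557, 0.0852, 0.0983 and 0.111 in limma), the first 2 of which are among the 14 genes called in both regions.

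**Figure D5:**
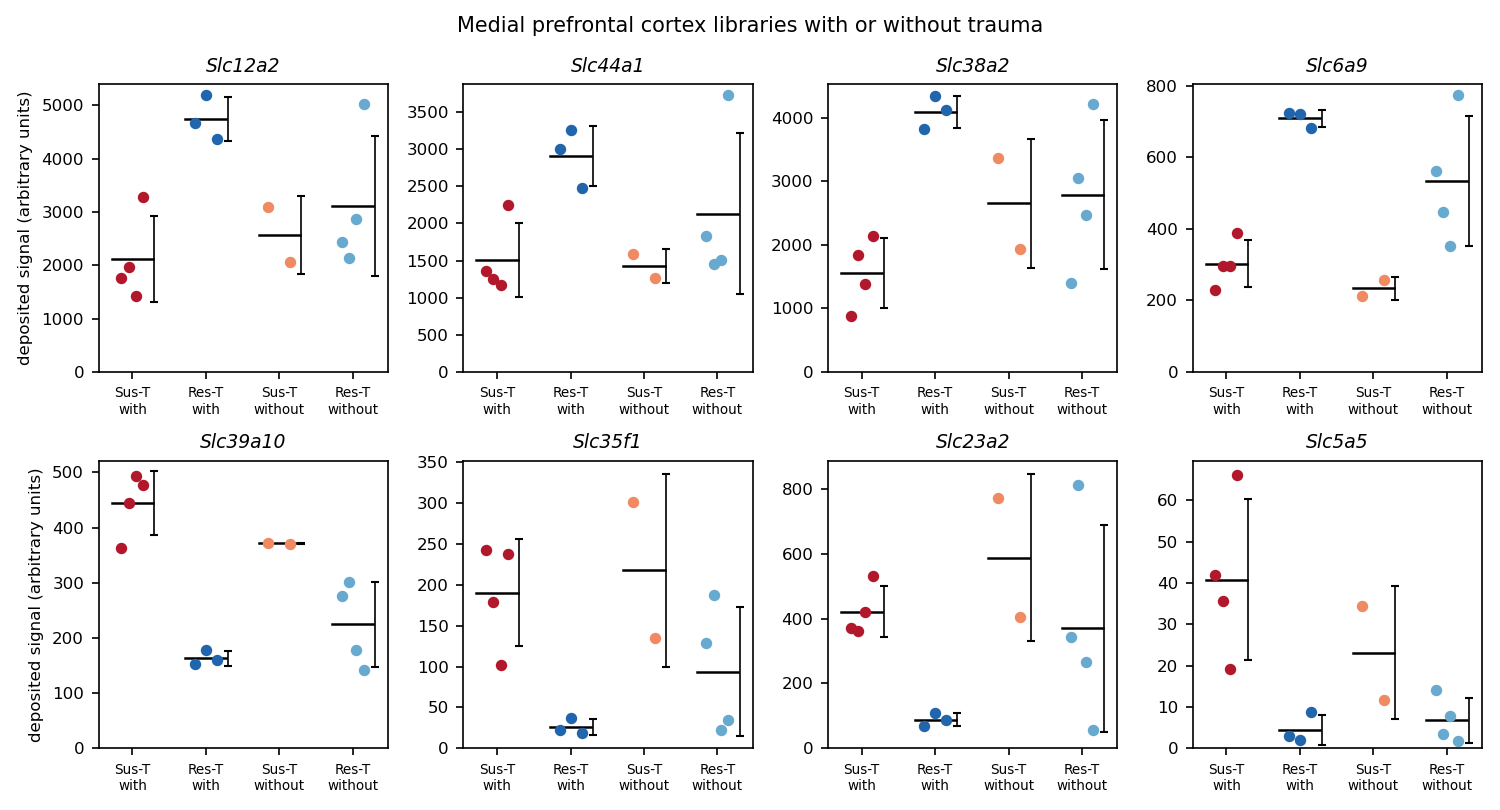
Deposited signal (y axis, arbitrary units, from 0) of 8 solute carrier genes in each prefrontal library, by group (x axis). Points are libraries, black lines means and bars SD. With trauma Sus-T lies below Res-T in the upper 4 genes and above it in the lower 4, and 1 library of Res-T without trauma stands above the others of its group in Slc12a2 and Slc44a1.

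No prefrontal member passed in the other comparisons in limma, and the share of all genes that passed was 0.0% in each. Between Sus-T and Res-T without trauma 12 members (12%) had an unadjusted p under 0.05, against 10.4% of all genes. The smallest were Slc6a9, with 211.2 and 255.7 units in Sus-T and 561.6, 448.1, 352.8 and 775.4 in Res-T (log2 difference -1.14 ± 0.29, adjusted p = 0.2), then Slc25a27 (-1.69 ± 0.48), Slc15a4 (-1.08 ± 0.37) and Slc39a10 (0.79 ± 0.29). The Slc6a9 libraries did not overlap, as in 15 members (15.0%) of this comparison, and the share over all genes is not given. For trauma in Sus-T 3 members (3%) had an unadjusted p under 0.05, against 1.5% of all genes, and the 4 smallest were Slc31a1 (-1.11 ± 0.42), Slc35e4 (-1.02 ± 0.46), Slc15a4 (0.80 ± 0.37) and Slc38a2 (-0.79 ± 0.38). For the difference of trauma effects 5 (5%) did, against 6.1% of all genes, and the smallest were Slc38a2 (-1.45 ± 0.50), Slc5a3 (-0.97 ± 0.37), Slc9b2 (-2.48 ± 1.02) and Slc22a15 (-1.60 ± 0.66), with a lowest adjusted p of 0.774.

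For trauma in Res-T 14 prefrontal members (14%) had an unadjusted p under 0.05, against 14.8% of all genes, and 0 passed with the library that stood apart. The smallest p were those of Slc35c2, a relative of the GDP-fucose carrier, with 28.2, 21.8 and 25.4 units with trauma and 59.0, 107.6, 92.9 and 43.7 without, and of Slc43a2, Slc23a2 and Slc25a5 (log2 differences -1.47, 0.79, -1.56 and -0.65). Without Res-T without trauma replicate 4, 11 members passed, where 9.67% of all genes did. Higher with trauma were Slc12a2, Slc43a2 and Slc44a1. Lower with trauma were Slc1a4, Slc23a2, Slc25a15, Slc25a37, Slc25a39, Slc35c2, Slc45a4 and Slc4a8. Slc12a2 had 4672, 5195 and 4360 units with trauma and 2427, 2132, 2875 and 5019 without, and Slc44a1 had 3000, 3255 and 2473 with trauma and 1828, 1453, 1507 and 3737 without, where the fourth value of each is the library that stood apart.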

How the data were processed

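RNA of sorted neurons was measured with an ultra-low-input kit and ribosomal RNA removal, per the labels' protocols. The submitters' processing notes name bcl2fastq 2.20, Salmon 1.2 and GRCm38.p6. The authors deposited values per gene as a signal in arbitrary units, whose normalization is not given in the sources used here, so read depth and counting intervals are unknown. Of 29 samples, 3 had no column and were not analysed here (replicate 2 of Sus-T without trauma from both regions, and of Res-T with trauma from the prefrontal cortex). The values held 0 zeros. After subtracting 1, taking logs and centring, the amygdala values lacked 1 dimension and the prefrontal values 2. The tests below added 1 instead, and that scale was not examined in this way. The spread between libraries may therefore be too small. Symbols came from GENCODE M21 and matched 9871 of 9872 amygdala and 6080 of 6080 prefrontal genes.

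Values were tested as log2(value + 1) with limma 3.58.1 (R 4.3.3), in 1 model of 4 groups per region with trended and robust variance, 9 residual degrees of freedom and Benjamini-Hochberg adjustment over all genes of the region (threshold 0.05). Fold changes are on this scale and understate changes of low genes. The steps were tested on simulated data, for Sus-T against Res-T without trauma. In the amygdala 21% of 2-fold and 74% of 4-fold changes were recovered, with 8 false calls. In the prefrontal cortex 20% and 62% were recovered, with 0 false calls. Most 2-fold changes were thus missed in the simulated data. Far fewer genes were changed there than passed in the amygdala without trauma, so these recovered shares need not hold for that comparison. A gene that did not pass may still differ. Tables and plots used Python 3.11.15, pandas 2.3.3 and matplotlib 3.10.9. A few results on single genes are not reported here. The members, lists and classes were chosen with earlier results of these data known. Named genes were the 10 rising and 10 falling members with the smallest p, up to 3 called members per class, the 4 smallest p where fewer passed, the extremes, and a list of textbook carriers. Slc25a21, Slc25a25, Slc38a1, Slc38a9, Slc43a2 and Slc45a4 in the amygdala without trauma, Slc25a37 in the prefrontal cortex, and the genes listed for fits without 1 library, were added after their values were seen. Slc6a11, Slc1a4, Slc5a11 and Slc16a3 in the amygdala without trauma were likewise named outside this rule. Alternatives were a pseudocount of 10, a mean of at least 50, no filter, quantile normalization, only the groups compared, the replicate number as a block and each library left out.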

Additional observations from a re-analysis of the deposited data

Results flagged for a closer look

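Single libraries lay far from the other 3 of their group in 16 cases among 55 amygdala and 36 prefrontal genes, each looked at in 2 groups of 4. By chance alone about 1 in 20 groups is picked out by Dixon's test, and no cause was tested.

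In amygdala Res-T with trauma, replicate 2 had 1279 units of the bicarbonate carrier Slc4a10, against 192.1 to 224.2 in the others, 1394 units of Slc4a2 against 350.7 to 476.8, and 1057 units of Slc25a5 against 332.6 to 427.6. The same library had 531.2 units of Slc2a1 against 344.7 to 355.7, 110.0 units of Slc10a7 against 63.6 to 66.5, and 164.7 units of Slc39a10, which lay below the 273.4 to 278.7 of the others. Replicate 1 of this group had 182.8 units of Slc26a2 against 76.3 to 87.8, 35.1 units of the zinc carrier Slc39a8 against 11.9 to 14.5, and 25.3 units of Slc5a11 against 15.4 to 17.0. In amygdala Sus-T with trauma, replicate 1 had 118.8 units of Slc25a13 against 38.3 to 48.6, and 636.7 units of Slc35a5 against 418.8 to 447.0.

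In prefrontal Res-T without trauma, replicate 4, the library with the highest oligodendrocyte share, had 3737 units of Slc44a1 against 1453 to 1828 and 182.8 units of Slc25a13 against 17.3 to 44.8. It was lower in Slc24a3, with 29.9 units against 91.4 to 98.5. Replicate 2 of this group had 711.3 units of Slc25a5 against 397.1 to 408.2. In prefrontal Sus-T with trauma, replicate 3 had 22.7 units of Slc9b2 against 7.58 to 9.45.

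The effect of trauma differed between Sus-T and Res-T by a test of the difference in 10 amygdala members (limma adjusted p under 0.05). The differences of the log2 effects, Sus-T minus Res-T, were 1.81 for Slc12a2, 1.41 for Slc43a2, 1.40 for Slc38a2, 1.36 for Slc44a1, 1.19 for Slc25a36, 1.05 for Slc38a6 and 1.01 for Slc16a1. They were -2.34 for Slc7a8, -2.06 for Slc25a22 and -1.08 for Slc25a23.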

How the results depend on the processing

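No named gene changed its direction past the threshold under any setting run. Leaving out 1 library at a time gave 29 to 48 called members for Sus-T against Res-T without trauma in the amygdala (53 with all libraries), 0 to 13 for trauma in Res-T (10), 0 to 11 for trauma in Sus-T (0) and 1 to 16 for the difference of trauma effects (10). In the prefrontal cortex it gave 11 to 19 for Sus-T against Res-T with trauma (25), 0 to 1 without trauma (0) and 0 to 11 for trauma in Res-T (0). Quantile normalization gave 1 member for amygdala trauma in Sus-T and 6 for the difference of trauma effects. A pseudocount of 10, a mean of at least 50, no filter and a fit of only the groups compared kept every count within 1.5 times. They gave 46 to 66 members for the amygdala without trauma and 22 to 34 for the prefrontal cortex with trauma. The share of all genes that passed is not given for these fits or for quantile normalization, so these counts are not read against it. The causes of these shifts were not tested.

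Libraries with the same replicate number did not deviate together in most pairs: amygdala correlations lay between -0.446 and 0.159 and prefrontal ones between -0.395 and 0.346, with 3 of 16 pairs over 0.1 in each. With the replicate number as a block the counts were 51, 12 and 6 for the amygdala without trauma, trauma in Res-T and the difference of trauma effects. For the prefrontal cortex with trauma the count was 19. The share of all genes that passed is not given for the block either. In the difference of trauma effects Slc16a1, Slc38a2, Slc38a6 and Slc43a2 lost their call under the block (limma adjusted p 0.0512 to 0.0654). Depth is unknown, and the Sus-T groups without trauma had 2 libraries in each region.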
